A study of Mus musculus with 3 samples.

Results

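miR-138 and miR-138* are the 2 arms of the miR-138 precursors, and their levels were followed in dendritic cells that had been grown from mouse bone marrow (BMDCs) and that present antigen to T cells. They are 2 of 568 mouse miRNA names in the deposited table, with 2 of its 579 mouse probes for mmu-miR-138 and 1 for mmu-miR-138*, and were selected by name after their intensities and their ratios to control were known. Total RNA was labelled with a single dye, Hy3, and read on 3 arrays, 1 for each group. The groups were a control described only as BMDCs, BMDCs co-cultured for 24 h in transwell plates with the ID8 line of mouse ovarian tumour cells, and BMDCs co-cultured in the same way with the CT-26 line of mouse colon tumour cells. The co-culture medium held 3% serum, whereas the medium, plates and time of the control are not given in the sources used here, so that culture and tumour cells cannot be told apart in a ratio to the control. No strain, sex or age of the donor mice is given either. With 1 array per group there are no replicates and no test, and every ratio below compares a pair of arrays.

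A microRNA is cut from a hairpin whose 2 arms pair with each other, and 1 arm is usually loaded into the silencing complex while the other, long written with a star, is degraded. The loaded arm finds its messenger RNA targets mainly through its seed, bases 2 to 8. miR-138 is known as a brain-enriched miRNA, and in rat hippocampal neurons it limits the size of dendritic spines by repressing the depalmitoylating enzyme APT1 (Lypla1). The dendrites of that work are those of neurons and have nothing to do with dendritic cells.

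The mouse genome makes the 5′ arm from a pair of genes and a different 3′ arm from each, and these sequences are shown because they set what the probes could read. They are taken from RefSeq on build GRCm38.p6, in which all 3 distinct mature arms were found, and the capitals mark the seed.
miR-138-5p: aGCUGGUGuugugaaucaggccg
miR-138-1-3p: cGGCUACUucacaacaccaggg
miR-138-2-3p: gCUAUUUCacgacaccagggu
The table's miR-138 is the 5′ arm. In current naming miR-138* is the 3′ arm of Mir138-1. The probe sequences are not part of the table, so which bases each probe covers was not analysed here. Aligned without gaps, the 3′ arms share 18 of 20 bases and differ by C7U and A13G, counted from 1 at the 5′ end of miR-138-1-3p, with the base of miR-138-2-3p second. A probe for miR-138* may therefore also read the 3′ arm of the second gene. Each of the 3 seeds was found in 1 of the 1674 distinct mature sequences of the RefSeq table, so no other mouse miRNA there shares a seed with either arm.

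The hairpins show how the arms face each other, and here the capitals mark the mature arms. Mir138-1 lies at chr9:122682876-122682974 on the plus strand, with no other annotated gene within 1000 bp.
Mir138-1: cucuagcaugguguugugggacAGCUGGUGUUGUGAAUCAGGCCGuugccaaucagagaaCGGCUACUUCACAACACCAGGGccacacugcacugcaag
Mir138-2 lies at chr8:94324311-94324381 on the plus strand, inside the annotated span of Nup93, a nuclear pore gene whose strand and exons are not in the table used here.
Mir138-2: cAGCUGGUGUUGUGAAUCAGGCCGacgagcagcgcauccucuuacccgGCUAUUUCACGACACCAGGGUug
In the minimum-energy fold by RNAfold, 18 of the 23 bases of the 5′ arm paired with the 3′ arm in Mir138-1 and 16 of 23 in Mir138-2. The loop between the arms measured 15 bases in the first and 24 in the second. The 5′ arm is identical in both, so the arrays cannot tell which gene it came from.

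On the arrays, the values are the background-corrected spot intensity deposited by the authors, in scanner units, and the normalized intensity that they derived from it by dividing each array by a constant. A value of at least 50 corrected units was taken as measured, and this floor is used throughout. Of the 579 mouse probes, 175 reached it in the control, 192 in the ID8 co-culture and 178 in the CT-26 co-culture. The brightest of 21 empty spots read 6, 1.75 and 2.25 corrected units on those arrays. Brightness differs between probes for reasons other than the amount of RNA. Levels of different probes that stand side by side below are therefore not read as relative amounts of RNA. A rank only follows the same probe from array to array.

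The brighter miR-138 probe read 320.25 corrected units in control BMDCs, 159 in the ID8 co-culture and 97.75 in the CT-26 co-culture. Its signal was thus highest in control BMDCs and lowest beside CT-26 cells, and all 3 readings were above the floor. The normalized intensities were 0.985, 0.399 and 0.292 in the same order. Among the 579 mouse probes its brightness rank was 83 in the control, 121 in the ID8 co-culture and 138 in the CT-26 co-culture, a shift that does not depend on how the arrays are scaled to each other.

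miR-138* gave 17678.25 corrected units in control BMDCs, 13203 in the ID8 co-culture and 11277.25 in the CT-26 co-culture. The control array again held the highest value. After normalization the ID8 and CT-26 arrays read 33.2 and 33.6, against 54.4 on the control array, so that the order of the co-cultures depends on the scaling. Its brightness rank was 3 on the control array and 4 on both co-culture arrays. The raw reading of 17736.75 on the control array was below the highest raw reading there, 26025.25. The name has 1 probe, so no other probe can be set beside it. Whether this probe reads miR-138* was not tested, and the statements on miR-138* below rest on it.

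The dimmer miR-138 probe stayed near the empty spots, with 5 corrected units in the control, 3.25 in the ID8 co-culture and 3.75 in the CT-26 co-culture. It was under the floor on all 3 arrays and gives no ratio. The statements on miR-138 below therefore rest on 1 of its 2 probes.

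**Figure D1:**
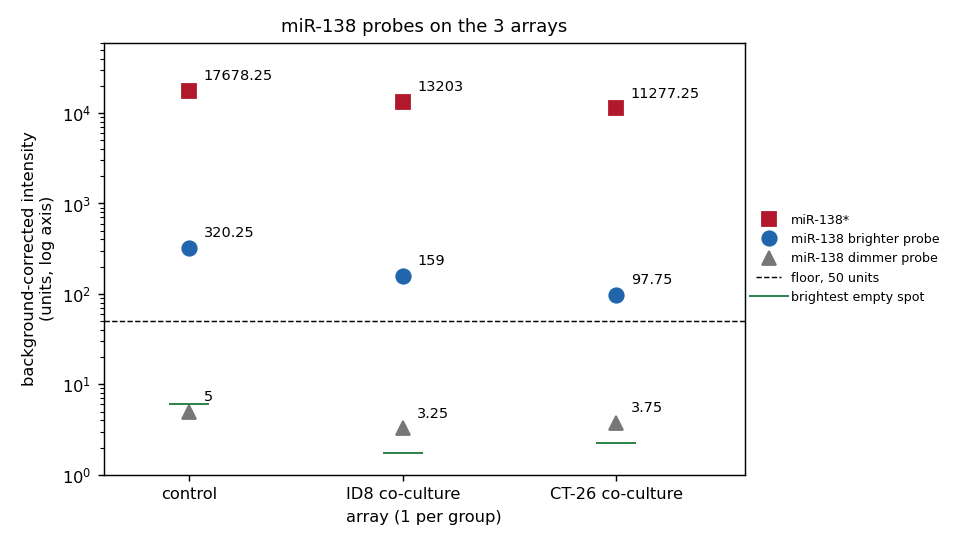
Background-corrected intensity (units, log axis) of the 3 probes on each array, 1 array per group. The miR-138* probe and the brighter miR-138 probe (320.25, 159 and 97.75 units) are highest on the control array, while the dimmer miR-138 probe stays under the floor of 50 units (dashed line), near the brightest empty spot (green dash).

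Such disagreement was seen for other names too. Of 10 mouse names with more than 1 probe, 4 had 1 probe above the floor on every array and another below it on every array, namely let-7d, let-7f, let-7g and miR-138. For let-7g, a growth-restraining miRNA abundant in differentiated cells, 1 probe read 1117 units in the control, 2046 with ID8 and 1871.25 with CT-26, where the other read 2, 3.75 and 4.5. A further 4 names had every probe under the floor on all arrays. Both probes of miR-185 were above it everywhere, and their log2 ratios had opposite signs beside ID8 cells, 0.25 and -0.23. For let-7i both probes passed the floor beside either tumour line and neither did in the control. Which probe of a discordant pair reads the named miRNA was not tested.

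**Figure D2:**
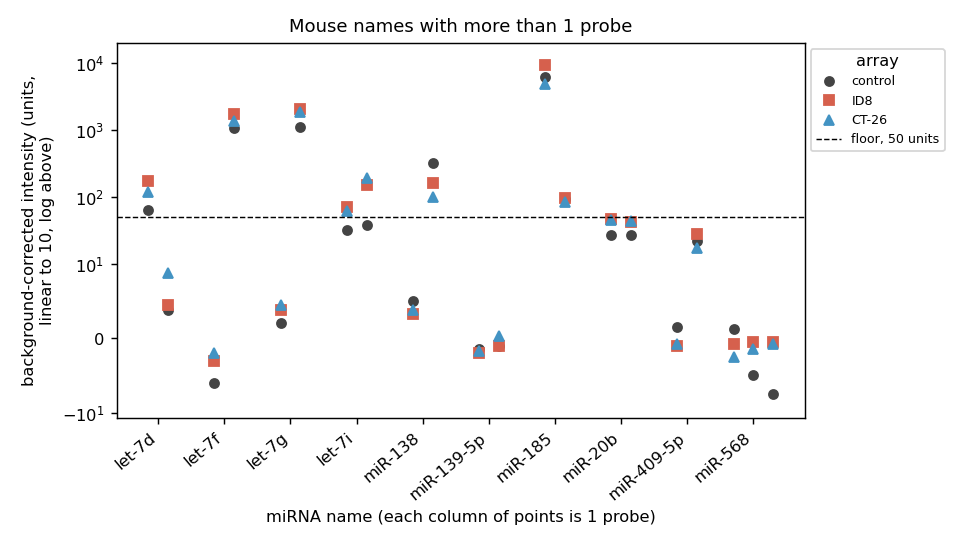
Background-corrected intensity (units, linear to 10 and logarithmic above) of each probe of the 10 mouse names with more than 1 probe, with 1 column of points per probe and 1 symbol per array. The 2 miR-138 probes part by the floor (dashed line) on all 3 arrays, and among the names with a probe above the floor everywhere miR-138 is the one with its highest reading on the control array and its lowest on the CT-26 array.

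The first comparison asks how BMDCs beside ID8 cells differed from control BMDCs. miR-138 was 2.47-fold lower in the ID8 co-culture, a log2 ratio of -1.30, and miR-138* was 1.64-fold lower, a log2 ratio of -0.71. The 165 mouse miRNAs measured in both samples included 5 that were at least 2-fold lower (3.03%), miR-138 among them, and 8 that were higher by that factor (4.85%). Over all 165 the log2 ratios had a median of 0.02. A more negative ratio than that of miR-138 was found for 3 miRNAs, and a more negative one than that of miR-138* for 9. Both members were picked with these ratios known, so their places in the list describe them and support nothing.

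The second comparison sets BMDCs beside CT-26 cells against the same control array. miR-138 was 3.38-fold lower (log2 ratio -1.76), and miR-138* was 1.62-fold lower (log2 ratio -0.69). Here 11 of 158 miRNAs were at least 2-fold lower (6.96%) and 21 higher by as much (13.3%), with a median log2 ratio of 0.01. Only miR-574-5p and miR-24-2* had a more negative ratio than miR-138 in this comparison, whereas 23 miRNAs had a more negative one than miR-138*. The ratios of both comparisons contain the single control array, so a high reading on it would lower both at once.

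Between the co-cultures, miR-138 was 1.37-fold higher beside ID8 cells than beside CT-26 cells (log2 ratio 0.45), and miR-138* had a log2 ratio of -0.02. Neither passed 2-fold, which 4 of 175 miRNAs did in the higher direction (2.29%) and 11 in the lower (6.29%). The ID8 over CT-26 ratio of miR-138 lay above those of 153 miRNAs and below those of 21.

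**Figure D3:**
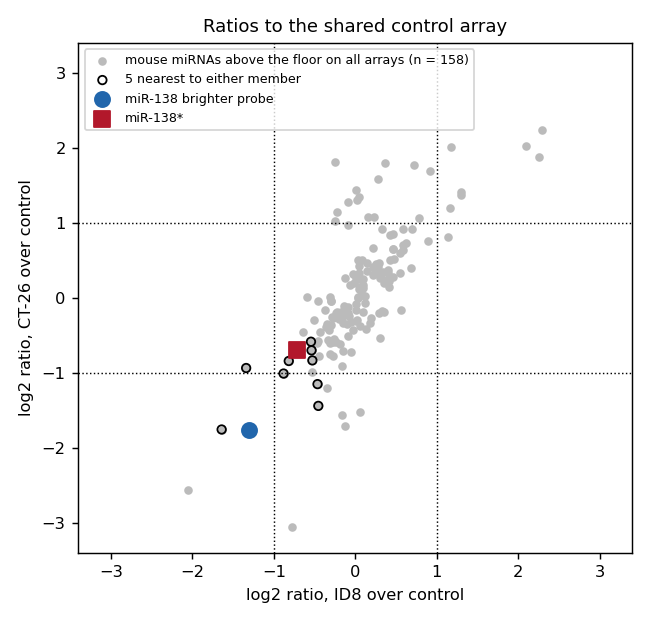
Log2 ratio of CT-26 over control against log2 ratio of ID8 over control for 158 mouse miRNAs above the floor on all arrays, with 2-fold marked by dotted lines; both axes share the control array. miR-138 (circle) lies past 2-fold lower on both axes at -1.30 and -1.76, and miR-138* (square) at -0.71 and -0.69 does not.

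The arms were next compared with each other through their ratios, in which the brightness of a probe cancels. In the ID8 co-culture the log2 ratio to control of miR-138 minus that of miR-138* was -0.59. In the CT-26 co-culture the gap was -1.06, so that the ratio to control of miR-138 was 2.09-fold below that of miR-138*. Scaling an array by a constant leaves this gap as it is, but other steps moved it across 2-fold without turning its direction. The gap for ID8 widened to -1.10 with cyclic loess normalization and narrowed to -0.41 with an offset of 50 units. The gap for CT-26 was -1.64 and -0.68 in the same settings.

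Gaps of this size were common among other precursors when the sign is set aside, but most of the wider ones went the other way. Of 170 arm pairs named on the array, 22 had both arms above the floor on all arrays. Without regard to sign, the median gap between arms was 0.37 for ID8 over control and 0.79 for CT-26 over control, on the log2 scale, and 9 and 7 of the 21 other pairs had a wider gap than miR-138. The widest were for CT-26 over control, at 2.42 for miR-142-5p minus miR-142-3p, whose precursor is specific to blood cells, 1.96 for miR-22 minus miR-22* and -1.91 for miR-574-5p minus miR-574-3p. In the direction of miR-138, with the unstarred or 5p arm lower, only 1 other pair was wider in each comparison. For ID8 it was miR-325 minus miR-325* at -0.65, and for CT-26 the miR-574 pair. Both arms were lower than control in 4 of the 22 pairs for ID8 and in 5 for CT-26, miR-138 included in each, while the arms went opposite ways in 9 and 13.

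**Figure D4:**
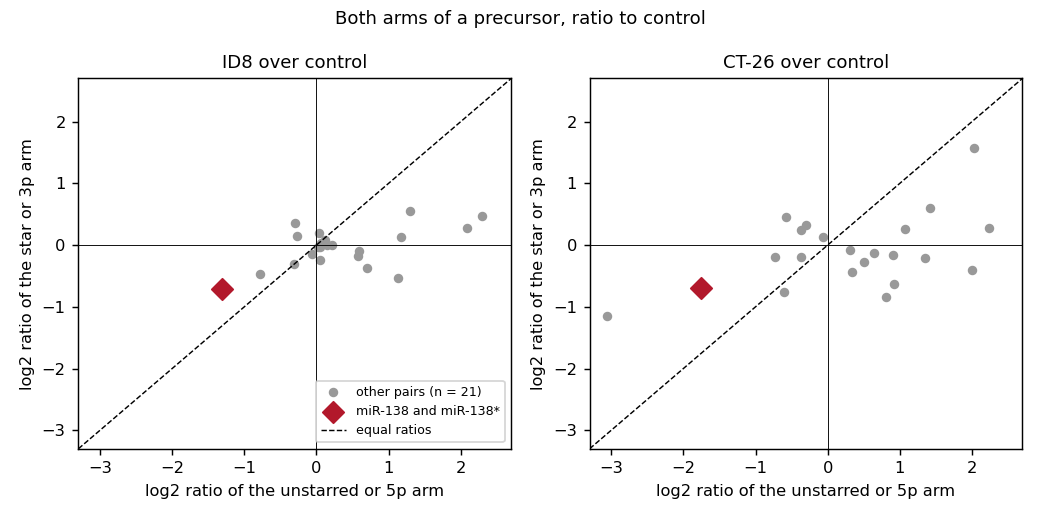
Log2 ratio to control of the star or 3p arm against that of the unstarred or 5p arm for 22 precursors with both arms above the floor on all arrays, for ID8 (left) and CT-26 (right); the dashed line marks equal ratios. miR-138 (diamond) is low on both axes and lies above the line, with gaps between the log2 ratios of its unstarred and star arms of -0.59 and -1.06.

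Star arms as a class were set beside miR-138*. Of 115 mouse probes whose name ends in a star, 33 were above the floor on all arrays. For ID8 over control their median log2 ratio was -0.08 over 34 arms, against 0.02 for all mouse miRNAs, and 2 of them were at least 2-fold lower (5.88%, against 3.03% of all mouse miRNAs), miR-24-2* and miR-433*. Only these 2 of the 34 had a more negative ratio than miR-138* in that comparison. For CT-26 over control the median was -0.21 over 33 arms, against 0.01, and the 3 past 2-fold lower (9.09%, against 6.96% of all mouse miRNAs) were miR-24-2*, miR-433* and miR-200c*, the last from a precursor of epithelial cells. let-7d* and miR-200b* also stood below miR-138* there, at -0.84 and -0.75.

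By likeness, the pattern of miR-138 was nearest to that of miR-433*, measured as the distance between pairs of log2 ratios to control over the 3 arrays and 158 miRNAs. miR-433* gave 297.25, 116.75 and 90.75 corrected units in the control, ID8 and CT-26 samples, with log2 ratios of -1.64 and -1.76, and lay at a distance of 0.34. Next came miR-673-3p, miR-693-5p, miR-200c* and miR-574-3p at distances of 0.82 to 1.03. miR-138* was nearest to miR-705, with 93.5, 68.5 and 59 units and a distance of 0.03, followed by miR-412, miR-551b, miR-667 and let-7d* at 0.18 to 0.23. Of these, miR-551b read 25968.25, 18051.75 and 14929.25 units in the same order, and miR-667 read 9558.75, 8026.75 and 6567.5. Patterns over 3 arrays with 1 shared control can be alike in many ways, and no more is read from them.

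Other brain-enriched miRNAs were mostly too dim to measure, and the 3 measured in all samples are too few to set against miR-138. Of 29 names on a neuron-enriched list, 27 were in the table, and 22 of them were under the floor on all arrays, none reading over 37.75 units. miR-124, miR-9, miR-128 and miR-137 were among these. Of the 3 above the floor on all arrays, 0 were at least 2-fold lower than control in either co-culture and the log2 ratios were all above 0. Among all mouse miRNAs 3.03% (ID8) and 6.96% (CT-26) were at least 2-fold lower. Ratios above 0 were held by 89 of 165 and 81 of 158, so 3 miRNAs cannot be told from this background. miR-212, made with miR-132 after neuronal activity, read 117.75, 189.75 and 156.75 units in the control, ID8 and CT-26 samples (log2 ratios 0.40 and 0.37). Its partner miR-132 read -1.25, 2.25 and 3 units in the same order. miR-330* had log2 ratios of 0.07 and 0.10. miR-129-5p read 682.5, 1071.5 and 2447.5 units, with log2 ratios of 0.36 and 1.80, so it was past 2-fold higher beside CT-26 cells. The listed miR-129-3p read -1.25, 0.5 and 2.75 units. Whether the brighter probes read the named miRNAs was not tested. miR-338-5p was above the floor on the control array alone, at 75.75 units against 40.5 and 26.5, and miR-183 on the ID8 array alone, at 51.25 units against 44.25 in the control and 39.25 beside CT-26 cells.

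The arrays differed as well in miRNAs listed for myeloid cells, which need not mean a difference in cell type. All 7 listed myeloid miRNAs reached the floor in both co-cultures and 5 did in the control, where miR-223 and miR-155 read 49 and 49.5 units. Of all 579 mouse probes, 175 reached it in the control, 192 in the ID8 co-culture and 178 in the CT-26 co-culture. The corrected intensities of the 7 were also summed without scaling the arrays, so that the brighter probes weigh most. This sum was 822.25 in the control, 2654.5 in the ID8 co-culture and 2366.75 in the CT-26 co-culture. Within the list miR-142-3p departed from the sum, with 305, 409.5 and 236.75 units in that order, and was lower than control beside CT-26 cells (log2 ratio -0.41). Of 6 epithelial markers, listed because of the tumour lines, 2 were above the floor on each array, and miR-200a, miR-200c, miR-141 and miR-429 never exceeded 22 units. The others were miR-200b, at 143.5, 141.5 and 97.25 units in the control, ID8 and CT-26 samples, and miR-194, at 51.75, 53.25 and 187 units, which was past 2-fold higher beside CT-26 cells (log2 ratio 1.81). Of 4 muscle markers in the table, miR-1 read 563, 1131.75 and 1982 units in the same order, miR-206 121, 122.75 and 40.5, and miR-133a and miR-133b at most 5. Of 3 lymphocyte markers, miR-150 passed the floor with ID8 alone, at 64.25 units. All 6 neuronal markers were under the floor, at no more than 28.5 units. The part of these differences in the miR-138 values was not tested, and fewer cells of a type and less RNA per cell cannot be told apart in total RNA.

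The members' ratios were then recomputed under other scalings and background corrections. miR-138 stayed at least 2-fold lower than control in every setting that gave a ratio, from -2.57 to -1.01 for ID8 and from -2.83 to -1.34 for CT-26 on the log2 scale. A change of floor cannot alter the ratio where one is given, so only the scalings and background corrections could move it. At a floor of 200 there was no ratio but a bound, at least 1.95-fold lower for ID8 and 1.64-fold for CT-26. miR-138* was below control in all of them but by less than 2-fold, except after scaling to the U6-snRNA-2 probe (-1.98 for ID8 and -1.76 for CT-26) or to the SNORD3@ probe (-1.05 and -1.12). The U6-snRNA-2 and SNORD3@ probes, small RNAs often used as references, were themselves higher in the co-cultures, with log2 ratios of 1.27 and 0.33 for ID8 and 1.07 and 0.43 for CT-26. With quantile normalization, which compares ranks, miR-138* had a log2 ratio of -0.24 in both co-cultures. Cyclic loess normalization likewise brought it nearer to the control, at -0.30 for ID8 and -0.27 for CT-26. The mouse probes brighter than miR-138* on the control array, miR-551b and miR-693-5p, were also lower in both co-cultures as deposited. Their log2 ratios were -0.82 and -0.88 for ID8 and -0.84 and -1.01 for CT-26. Whether the lower miR-138* values belong to bright probes in general was not tested. The 40 control spots named for the Hy3 dye had median per-spot normalized log2 ratios of -0.29 and -0.14. A setting added after seeing the data scaled each array to the median corrected intensity of these spots, which is a different measure from the per-spot ratios. There miR-138* stood at -0.42 and -0.59.

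**Figure D5:**
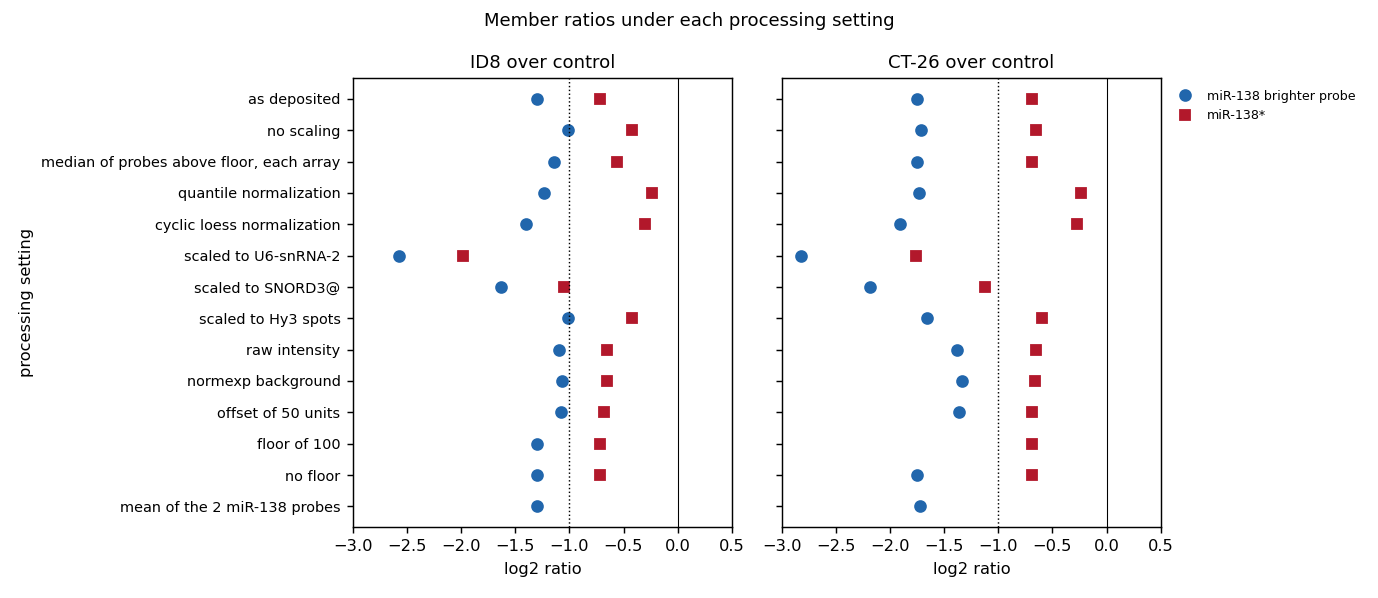
Log2 ratio to control of miR-138 (brighter probe, circles) and miR-138* (squares) under each processing setting, for ID8 (left) and CT-26 (right); the dotted line marks 2-fold lower. All points lie below 0, and the miR-138* squares pass the dotted line under U6-snRNA-2 and SNORD3@ scaling only; at a floor of 100 miR-138 has no CT-26 point.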

How the data were processed

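The deposited table gives raw, corrected and normalized intensity for 1408 probes on 3 single-colour arrays, per the file headers. Scanning used a GenePix 4000B instrument with GenePix Pro 6 software, as the series' design text states. Within each array the authors' normalized intensity equalled the corrected intensity divided by 325 (control), 398.25 (ID8) or 335.25 (CT-26), the median of the 159 mouse probes at or above 50 units on every array; this rule was inferred from the values. The series matrix held identical values. The table spells ID8 as 1D8, as the design text does.

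Ratios were log2 ratios of normalized intensity where both arrays reached 50 corrected units, with probes of a name above that floor averaged on log2. Likeness was the Euclidean distance over both ratios to control, and the 5 nearest miRNAs were named. Members and lists were chosen with earlier results of these data known. No probe sequence or genome build is given in the sources used here, and sequences are RefSeq's. The number of arrays limits the precision, and no p-value was computed. The calculation was run on simulated arrays with an assumed noise to check the code, which does not measure the precision of the real arrays. Python 3.11.15, numpy 2.4.6, pandas 2.3.3, R 4.3.3 with limma 3.58.1 and RNAfold 2.7.2 were used. Alternatives were other scalings, backgrounds, floors and thresholds.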

Additional observations from a re-analysis of the deposited data

How the results depend on the processing

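With 1 array per group no setting has an error, and a value counts as moved when it shifts by over 1.5 times or crosses 2-fold. No ratio of a member past 2-fold changed sign. Scaled to U6-snRNA-2, the log2 ratios to control were -2.57 (miR-138, ID8), -2.83 (miR-138, CT-26), -1.98 (miR-138*, ID8) and -1.76 (miR-138*, CT-26), where the median of all mouse miRNAs was itself -1.25 for ID8 and -1.06 for CT-26. Scaled to SNORD3@, miR-138* stood at -1.05 and -1.12, with all-miRNA medians of -0.31 and -0.42. The gap between miR-138 and miR-138* was -1.10 for ID8 with cyclic loess, and for CT-26 -0.73 without background subtraction, -0.68 with normexp and -0.68 with an offset of 50. Over all settings the ID8 over CT-26 ratio ran from 0.26 to 0.70 for miR-138 and from -0.22 to 0.23 for miR-138*, whose direction between co-cultures thus depends on the scaling. At a floor of 100 miR-138 was at least 3.25-fold lower beside CT-26 cells than in the control and at least 1.32-fold lower there than beside ID8 cells; at 200 it was at least 1.95-fold (ID8) and 1.64-fold (CT-26) lower than control. The dimmer miR-138 probe alone gave no value above the floor. The linear mean of both probes gave -1.30 for ID8, which the brighter probe all but fixes, so it says nothing of the dimmer probe.

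The counts of miRNAs past 2-fold moved more, for causes not tested except where a floor or threshold changes what is counted. For ID8 over control, 8 higher and 5 lower became 1 and 117 under U6-snRNA-2 scaling, 3 and 10 under SNORD3@ scaling, 4 and 3 at a floor of 100, 2 and 1 at 200, 45 and 50 with no floor, 15 and 12 at 1.5-fold and 3 and 1 at 4-fold; the higher count was 5 with raw intensity, with normexp and with an offset. For CT-26 over control, 21 and 11 became 1 and 83 under U6-snRNA-2, 10 and 31 under SNORD3@, 13 and 6 at a floor of 100, 10 and 4 at 200, 62 and 71 with no floor, 36 and 29 at 1.5-fold and 3 and 2 at 4-fold. For ID8 over CT-26, 4 higher became 7 without scaling and 7 when scaled to the Hy3 spots, a setting chosen after seeing the data, and 11 lower became 7 with normexp and 7 at a floor of 100. At a floor of 200 these were 2 and 7, with no floor 34 and 32, at 1.5-fold 11 and 18 and at 4-fold 1 and 1. No paired analysis was possible because each group has 1 array.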
